A study of Mus musculus with 20 samples.

Results

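Oxidative phosphorylation is carried out by 5 multi-subunit complexes of the inner mitochondrial membrane, and the genes for their subunits were compared between *Winnie* mouse brains and brains from C57BL/6 mice. The genes were taken by name from the deposited table, as those beginning with mt-, Nduf, Sdh, Uqcr, Cox4, Cox5, Cox6, Cox7, Cox8 or Atp5, and 120 names began in this way. Names of complex I assembly factors (Ndufaf) and of pseudogenes (-ps) were left out, which left 112 of the 17211 genes in the table. Of these, 81 were nuclear genes for subunits (36 of complex I, 4 of complex II, 8 of complex III, 18 of complex IV and 15 of complex V), 13 were subunit genes of the mitochondrial DNA, 2 were mitochondrial ribosomal RNAs, 10 were mitochondrial transfer RNAs and 6 were nuclear genes for factors that share a prefix with the subunits. All 112 matched a gene on the same chromosome in GENCODE M21 (GRCm38) by gene ID.

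*Winnie* mice carry a mutation of *Muc2*, the gene for the main mucin of the intestine, and develop colitis without any agent being given. The animals were 14 weeks old, and both groups were bred in 1 colony, with no treatment named in the labels. RNA was from brain, 1 mouse per sample, with 10 *Winnie* and 10 C57BL/6 samples, each group labelled as 5 females and 5 males. The study describes 8 C57BL/6 and 6 *Winnie* brains, and all 20 labelled samples were used here.

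The electron transport chain passes electrons from NADH (complex I) or succinate (complex II) through ubiquinone to complex III, on to cytochrome c and finally to oxygen at complex IV. Complexes I, III and IV pump protons, and complex V, the ATP synthase, uses their return to make ATP. Neurons depend on this ATP to restore ion gradients after firing. Complexes I, III, IV and V hold subunits from both genomes, so their assembly needs the products of mitochondrial and of nuclear genes, whereas complex II is encoded in the nucleus alone. Within each complex, core subunits carry the catalytic centres or the membrane channel, and many small accessory subunits surround them.

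The samples held 16540303 to 23923769 reads over the listed genes, and 1 read was worth 0.0418 to 0.0605 CPM, the authors' unit, in which each sample's reads are scaled to the same total. The female-specific RNA *Xist* and the Y-linked *Ddx3y* went with the sex label in all 10 *Winnie* libraries and against it in 9 of the 10 C57BL/6 libraries, all but replicate 4. The library numbers run 1 to 10 in C57BL/6 and 11 to 20 in *Winnie*, so library order and genotype cannot be told apart. Without the 9 libraries that go against their label, a single C57BL/6 brain is left, taken to vary as the *Winnie* brains do. In that fit 0 of the 112 genes had an FDR under 0.05, as against 8 with all libraries, but only 1 of all 17211 genes was called in it, against 434. The median log2 fold change in that fit was -0.15 over the 112 genes and 0.03 over all genes.

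The median log2 fold change of nuclear subunits was below 0 in every complex, with 7 of the 81 genes past an FDR of 0.05 with limma, and no protein-coding mitochondrial gene passed it. After correction for transcript length the nuclear median moved from -0.12 to -0.05 and 0 genes passed, and other short genes had a median of -0.09 without it (both described with the length data). Of the 112 genes, 8 were lower and 0 were higher at an FDR under 0.05 (limma on log2(CPM + 0.5), adjusted over all genes), where 1.01% of all genes tested were lower and 1.52% were higher. At an unadjusted p under 0.05, 50 were lower and 0 higher, against 8.08% of all genes lower and 9.53% higher. The median log2 fold change was -0.12 over the 112 genes and 0.00 over all genes, and 100 of the 112 had a fold change below 0. The study names the tissue as brain and gives no region. In RNA from such tissue, fewer cells of a type and less RNA per cell cannot be told apart. Fold changes are on the log2(CPM + 0.5) scale, which understates the change of low genes.

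By complex, the median log2 fold change of nuclear subunits was -0.12 in complex I, -0.12 in complex II, -0.15 in complex III, -0.12 in complex IV and -0.14 in complex V. All 36 nuclear subunits of complex I had a fold change below 0, and 19 of them had an unadjusted p under 0.05. The number at that threshold was 3 of 4 in complex II, 5 of 8 in complex III, 9 of 18 in complex IV and 7 of 15 in complex V, each in the lower direction. Accessory subunits had a median of -0.13 (61 genes). Core subunits, which hold the redox centres, the proton channel ring or the catalytic head, had a median of -0.07 (20 genes). Core subunits more often have long transcripts, and this split was not corrected for length. Nuclear subunits with transcripts under 1000 bases had a median of -0.14, and the longer ones had -0.07. The 13 mitochondrially encoded subunits had a median of -0.02, with 0 past an unadjusted p of 0.05 in either direction.

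**Figure D1:**
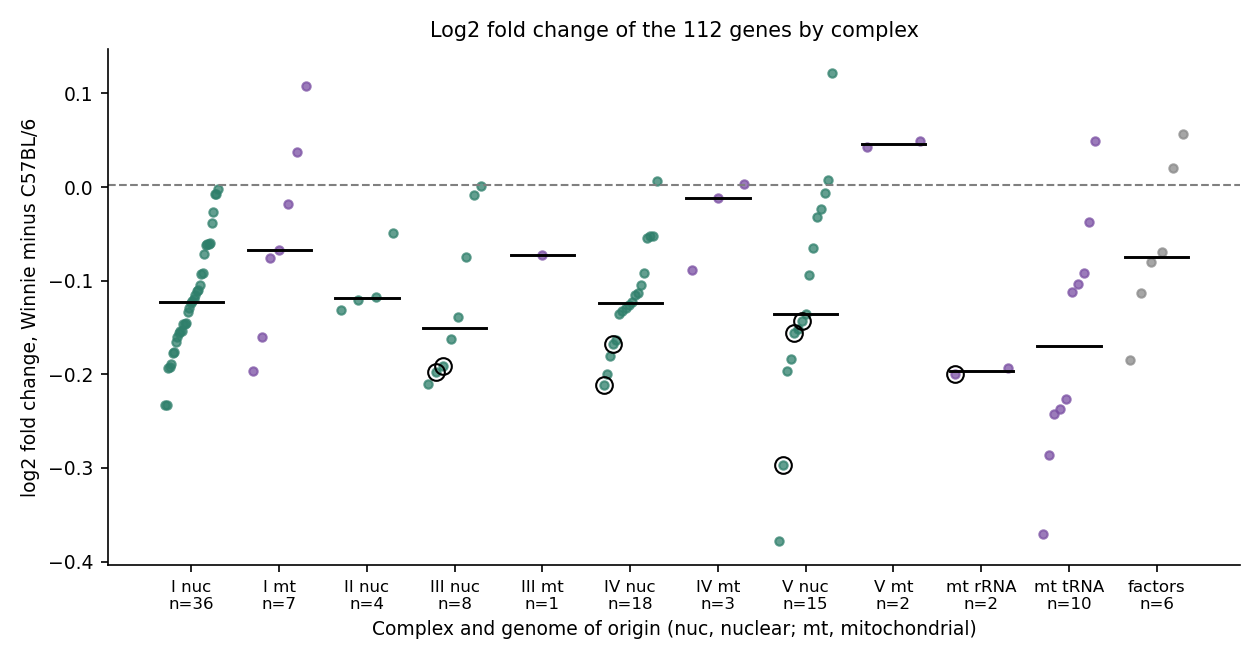
Log2 fold change of each gene (*Winnie* minus C57BL/6, y axis) by complex and genome of origin (x axis, with the number of genes). Each point is a gene, black bars are medians, circles mark an FDR under 0.05, and the dashed line is the median of all genes. All 36 nuclear subunits of complex I lie below 0 (the lowest at -0.23), while the mitochondrial subunits lie on both sides of 0.

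The gene with the smallest FDR was *Uqcrq* (ENSMUSG00000044894, chr11:53427922-53430831), a small accessory subunit that sits beside the cytochrome b of complex III. It measured 58.2, 68.8 and 74.9 CPM as the lowest, median and highest value in C57BL/6 and 52.4, 58.0 and 63.5 CPM in *Winnie*. All 10 *Winnie* brains were below the C57BL/6 median, and 5 were below the lowest C57BL/6 brain, so the groups overlapped. The log2 fold change was -0.20 (SE 0.0442, FDR 0.0165), 12.8% lower, and it was called whichever brain was left out. *Uqcr10* (ENSMUSG00000059534, chr11:4701973-4704342), another small subunit of complex III, which contacts cytochrome c1, ran from 58.8 over a median of 70.0 to 75.9 CPM in C57BL/6 and from 55.2 over 61.3 to 67.3 CPM in *Winnie*. All 10 *Winnie* brains were again below the C57BL/6 median, and 8 C57BL/6 brains were above the highest *Winnie* brain. Its log2 fold change was -0.19 (SE 0.0463, FDR 0.0244).

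Among subunits of complex IV, cytochrome c oxidase, *Cox5a* and *Cox5b* were lower. Their products are accessory subunits of the enzyme. *Cox5a* (ENSMUSG00000000088, chr9:57521274-57532426) measured 82.1, 90.4 and 97.5 CPM as lowest, median and highest in C57BL/6 and 64.5, 76.7 and 101 CPM in *Winnie*. In 8 *Winnie* brains it was below the lowest C57BL/6 brain, while the highest *Winnie* brain was above every C57BL/6 brain. The log2 fold change was -0.21 (SE 0.0554, FDR 0.0374). *Gm26631* overlaps its exons on the opposite strand, and the strand used in counting is not given in the sources used here. *Cox5b* (ENSMUSG00000061518, chr1:36691449-36693681), which binds zinc, ran from 93.4 over 103 to 116 CPM in C57BL/6 and from 82.2 over 92.9 to 106 CPM in *Winnie*, with 9 *Winnie* brains below the C57BL/6 median and a log2 fold change of -0.17 (SE 0.0439, FDR 0.0373).

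In complex V, 3 small subunits were called. *Atp5e* (ENSMUSG00000016252, chr2:174461072-174464105) and *Atp5d* (ENSMUSG00000003072, chr10:80138632-80145818) encode the epsilon and delta subunits, which join the rotating stalk to the ring of the membrane part. *Atp5e* measured 16.9, 19.7 and 24.0 CPM as lowest, median and highest in C57BL/6 and 12.3, 15.8 and 21.4 CPM in *Winnie*. In 6 *Winnie* brains it was below the lowest C57BL/6 brain, and the log2 fold change was -0.30 (SE 0.0794, FDR 0.0411), 18.6% lower. *Atp5d* ran from 182 over 194 to 212 CPM in C57BL/6 and from 164 over 176 to 193 CPM in *Winnie*. All 10 *Winnie* brains were below the C57BL/6 median, and the log2 fold change was -0.14 (SE 0.0369, FDR 0.0355). *Atp5d* shares exon positions with *Cbarp* on the opposite strand, and with edgeR's quasi-likelihood test on the recovered reads its FDR was 0.0609.

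*Atp5g1* (ENSMUSG00000006057, chr11:96068852-96075670) is 1 of 3 genes for the c subunit of the proton-driven ring. It ran from 43.3 over 44.95 to 49.5 CPM in C57BL/6 and from 37.0 over 40.5 to 46.6 CPM in *Winnie*, with 7 *Winnie* brains below the lowest C57BL/6 brain and a log2 fold change of -0.16 (SE 0.0430, FDR 0.0463). Its value is uncertain, because the processed pseudogene *Gm10039* matches 69.0% of its transcript at 99.8% identity. *Gm10039* was itself listed at 54.5 CPM in C57BL/6 and 46.8 CPM in *Winnie* on average, with a log2 fold change of -0.22 (limma FDR 0.0184).

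The eighth called gene was *mt-Rnr2* (ENSMUSG00000064339, chrMT:1094-2675), the large ribosomal RNA of the mitochondrion. It measured 6735, 7250 and 7849 CPM as lowest, median and highest in C57BL/6 and 5092, 6436 and 7282 CPM in *Winnie*. In 7 *Winnie* brains it was below the lowest C57BL/6 brain, and the log2 fold change was -0.20 (SE 0.0476, limma FDR 0.0240), with an FDR of 0.0534 by edgeR.

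**Figure D2:**
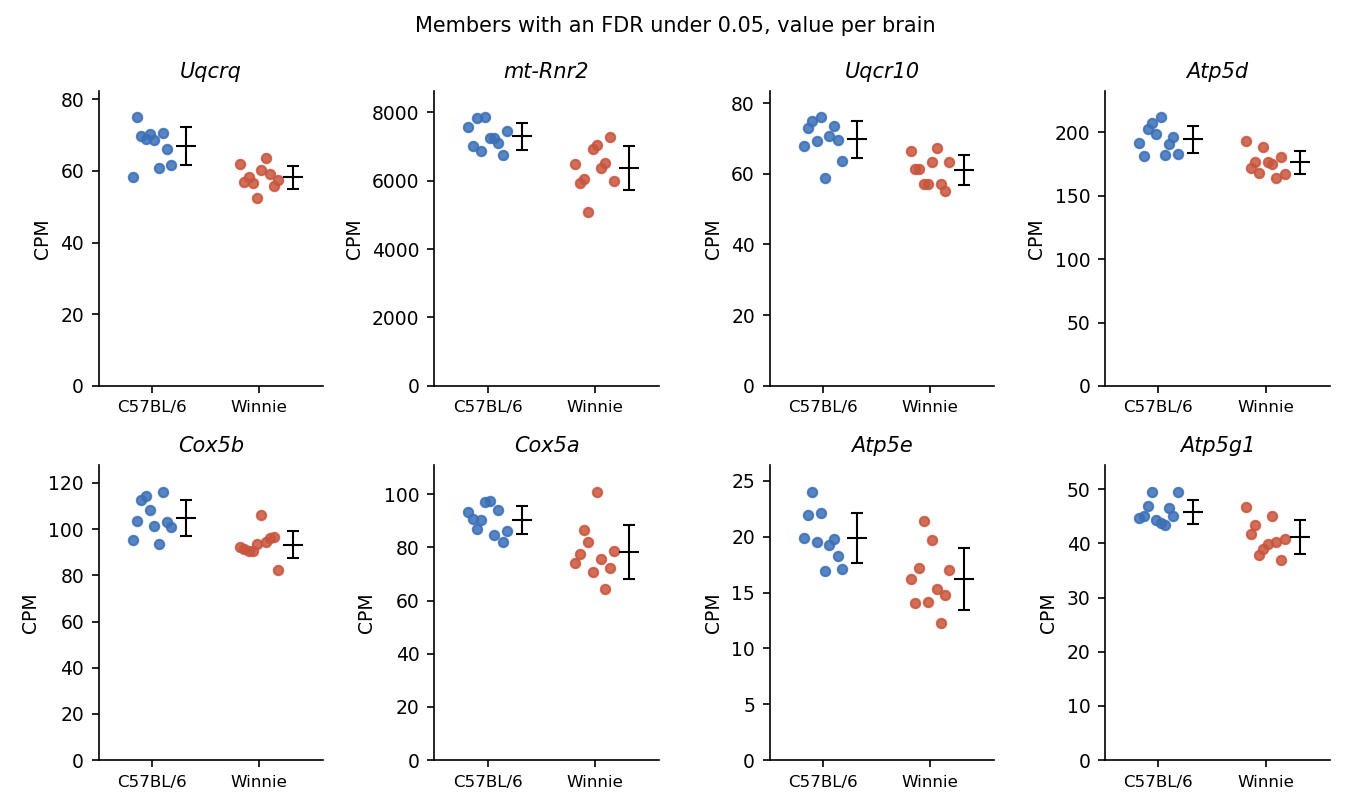
CPM (y axis, from 0) of the 8 genes with an FDR under 0.05, with 1 point per brain for C57BL/6 (blue) and *Winnie* (red), and the mean with its SD in black (10 brains per group). The groups overlap for each gene, and *Winnie* means lie 9.41% (*Atp5d*) to 18.6% (*Atp5e*) lower on the log2(CPM + 0.5) scale.

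The count of called genes depended on single brains. With each brain left out in turn it ran from 1 to 16, and 0 genes were higher at an FDR under 0.05 in any of these fits. Calls over all genes ran from 169 (without C57BL/6 replicate 5) to 694 (without C57BL/6 replicate 10). Only *Uqcrq* was called without C57BL/6 replicate 3 or replicate 5, and *Uqcrq* and *mt-Rnr2* without *Winnie* replicate 8. The count was 3 without C57BL/6 replicate 4 or *Winnie* replicate 10, 4 without C57BL/6 replicate 8 or 9 or *Winnie* replicate 2, 3 or 7, and 5 without *Winnie* replicate 5 or 9. It was 13 without C57BL/6 replicate 6 or 10 and 16 without *Winnie* replicate 6. *Uqcrq* was called in 20 of the 20 fits, *mt-Rnr2* in 18, *Uqcr10* in 17, *Atp5d* in 10, *Cox5b* in 9, *Cox5a* in 8, *Atp5g1* in 6 and *Atp5e* in 5.

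Complex I, the NADH dehydrogenase, had no gene past an FDR of 0.05. Its lowest nuclear fold changes were those of *Ndufa2* (-0.23, SE 0.0942, FDR 0.186) and the X-linked *Ndufa1* (-0.23, SE 0.104, FDR 0.248), which encode small accessory subunits. *Ndufa1* measured 21.6, 28.9 and 35.9 CPM as lowest, median and highest in C57BL/6 and 18.1, 23.3 and 33.1 CPM in *Winnie*, so the groups overlapped over most of their range. *Ndufb11*, an X-linked accessory subunit of the membrane arm, ran from 59.0 to 80.8 CPM in C57BL/6 and from 54.9 to 67.1 CPM in *Winnie* (log2 fold change -0.18, FDR 0.0598). The highest fold changes in the complex were those of *Ndufs7*, a core subunit that holds the last iron-sulfur cluster before ubiquinone (0.00, 95% interval -0.09 to 0.09), and *Ndufb4*, an accessory subunit (-0.01, interval -0.24 to 0.23). *Ndufs1*, the largest core subunit, was at -0.01 (FDR 0.955), and was singled out after its value was seen.

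Complex II, succinate dehydrogenase, links the chain to the tricarboxylic acid cycle. Its catalytic flavoprotein *Sdha* was at 324 to 378 CPM in C57BL/6 and 291 to 382 CPM in *Winnie* (log2 fold change -0.05, FDR 0.584). *Sdhb*, the iron-sulfur subunit, was at -0.12 (FDR 0.281), and the membrane anchors *Sdhc* and *Sdhd* were at -0.12 and -0.13 (both FDR 0.216). *Sdhd* ranged from 43.1 to 51.8 CPM in C57BL/6 and from 35.2 to 54.6 CPM in *Winnie*, the *Winnie* range enclosing that of C57BL/6.

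Beside *Uqcrq* and *Uqcr10*, complex III held both low and unshifted values, which were not tested against each other. *Uqcr11*, a small accessory subunit, measured 42.8, 51.4 and 60.6 CPM as lowest, median and highest in C57BL/6 and 37.4, 46.95 and 49.6 CPM in *Winnie*, and its log2 fold change was -0.21 (FDR 0.0703). All 10 *Winnie* brains were below the C57BL/6 median, although the FDR missed the threshold. The large subunits *Uqcrc1* and *Uqcrc2*, which face the matrix, were at 0.00 (interval -0.08 to 0.08) and -0.01 (interval -0.10 to 0.08). *Uqcrc1* ranged from 149 to 182 CPM in C57BL/6 and from 154 to 177 CPM in *Winnie*. The sign of the *Uqcrc1* fold change turned under median-ratio scaling and under scaling to genes outside the mitochondrial DNA.

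Complex IV has isoform pairs that differ by tissue, and the brain samples expressed mainly the isoforms known from most tissues. In levels per 1000 bases of transcript (C57BL/6 means), *Cox4i1* was at 389 and the lung and hypoxia isoform *Cox4i2* at 2.01 CPM. *Cox6a1* was at 375 and the heart and muscle isoform *Cox6a2* at 10.8, *Cox7a2* at 84.0 and the muscle isoform *Cox7a1* at 2.53, and *Cox8a* at 561 and the muscle isoform *Cox8b* at 1.84. *Cox6b1* was at 349 and the testis isoform *Cox6b2* at 6.30. *Ndufa4*, a subunit of complex IV in spite of its name, was at 207 and its paralog *Ndufa4l2* at 2.88.

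Fold changes of both members of each isoform pair were below 0. The isoforms of most tissues were at -0.11 (*Cox4i1*, FDR 0.324), -0.12 (*Cox6a1*, FDR 0.0981), -0.18 (*Cox6b1*, FDR 0.0671), -0.16 (*Cox7a2*, FDR 0.0946), -0.12 (*Cox8a*, FDR 0.232) and -0.09 (*Ndufa4*, FDR 0.267). The other isoforms were at -0.13 (*Cox4i2*), -0.20 (*Cox6a2*), -0.13 (*Cox6b2*), -0.11 (*Cox7a1*), -0.14 (*Cox8b*) and -0.05 (*Ndufa4l2*), with FDR of 0.274 or more, and *Cox8b* rested on 3 to 21 reads per brain. *Cox6a1* ranged from 186 to 235 CPM in C57BL/6 and from 185 to 216 CPM in *Winnie*, with 9 *Winnie* brains below the C57BL/6 median. The supercomplex factor *Cox7a2l* was at -0.05 (FDR 0.489), *Cox6c* at -0.05 (FDR 0.745), the X-linked *Cox7b* at -0.13 (FDR 0.221) and *Cox7c* at 0.01 (FDR 0.991). The sign for *Cox7c* turned with edgeR, with DESeq2 and with *Ddx3y* as a covariate, so no direction is given for it.

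Complex V had both the lowest and the highest fold change of the nuclear subunits. *Atp5k*, the e subunit of the membrane part, which takes part in pairing ATP synthases, measured 30.1, 43.4 and 53.7 CPM as lowest, median and highest in C57BL/6 and 21.1, 31.8 and 52.3 CPM in *Winnie*. Its log2 fold change was -0.38 (SE 0.133, FDR 0.132), with 9 *Winnie* brains below the C57BL/6 median and replicate 6 close to the highest C57BL/6 brain. Without *Winnie* replicate 6 its FDR was 0.0318. In the catalytic head, the beta subunit *Atp5b* ranged from 875 to 1004 CPM in C57BL/6 and from 854 to 1011 CPM in *Winnie* (log2 fold change -0.01, 95% interval -0.08 to 0.06, FDR 0.947). *Atp5a1* (alpha) and *Atp5c1* (gamma), singled out with *Atp5b* after their values were seen, were at -0.03 and -0.02 (FDR 0.770 and 0.807).

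The 3 genes of the c ring encode the same mature protein with different import sequences. *Atp5g3* ran from 92.7 over 104 to 117 CPM in C57BL/6 and from 77.0 over 87.5 to 117 CPM in *Winnie* (log2 fold change -0.20, FDR 0.0640). *Atp5g2*, listed at 1.99 to 3.17 CPM in C57BL/6 and 1.88 to 3.67 CPM in *Winnie*, was at 0.12 (FDR 0.552) and has a pseudogene copy, *Gm10175*, that is identical over its whole transcript. *Atp5l*, the g subunit of the membrane part, was listed at only 1.78 to 4.08 CPM in C57BL/6 and 1.57 to 2.71 CPM in *Winnie*, while its pseudogene *Gm10221*, which matches 56.8% of it at 100% identity, averaged 63.3 and 52.7 CPM. *Atp5h*, the d subunit of the stator, was at 0.01 (FDR 0.963), with the pseudogene *Gm10250* at 99.0% identity listed at 61.5 CPM. In all, 20 of the 112 genes had another annotated transcript of at least 95% identity over at least 50% of their length, 12 of them nuclear subunits and 8 mitochondrial, and how reads with several matches were counted is not given in the sources used here.

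Short sequences upstream of 4 nuclear subunits show the motifs that were searched in the subunits with the lowest fold changes, among those whose stretch around the match lies wholly outside the gene as annotated in GENCODE. *Atp5k*, with the lowest fold change, also holds GCGCANGCG upstream of its RefSeq start, but the stretch around it overlaps the GENCODE gene and is not printed. They are from RefSeq promoters (GRCm38.p6), which held 66 of the 81 nuclear subunits, each from 250 bases before to 50 bases after the start. Capitals mark the match, GCGCANGCG (a core of sites bound by NRF1) in *Ndufs5* and *Atp5l* and CCGGAAG (a core of sites bound by ETS factors such as GABPA) in *Atp5e* and *Uqcr11*, on either strand. The value of *Ndufs5* (log2 fold change -0.19) is uncertain, because the processed pseudogene *BC002163* matches 60.8% of its transcript at 99.4% identity. *BC002163* was listed at 18.4 CPM in C57BL/6 and 17.5 CPM in *Winnie* on average, with a log2 fold change of -0.08. All 4 subunit genes are on the minus strand, and the stretches are written in their direction.
*Ndufs5*, chr4:123718250-123718310: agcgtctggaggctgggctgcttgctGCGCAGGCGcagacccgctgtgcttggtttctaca
*Atp5l*, chr9:44920949-44920992: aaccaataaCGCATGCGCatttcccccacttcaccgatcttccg
*Atp5e*, chr2:174464171-174464229: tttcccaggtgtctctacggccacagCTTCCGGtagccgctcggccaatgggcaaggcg
*Uqcr11*, chr10:80406855-80406913: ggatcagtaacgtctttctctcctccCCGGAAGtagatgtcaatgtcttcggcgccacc

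NRF1 and GABPA are known regulators of many nuclear genes for the respiratory chain. GCGCANGCG was found in 30.3% of the 66 subunit promoters, 7.03% of the promoters of all 27025 genes in the RefSeq table and 13.6% of those of the other genes tested here. CCGGAAG was found in 24.2%, 9.93% and 17.3%. The YY1 core AAGATGGCG was found in 10.6%, 1.64% and 3.04%, and TGACGTCA, the cyclic AMP response element, in 6.06%, 2.03% and 3.45%. These letters do not contain one another. Subunits lower at an unadjusted p under 0.05 held GCGCANGCG in 10 of 38 promoters and the other subunits in 10 of 28, and CCGGAAG in 11 of 38 and 5 of 28. A match is a description of the letters and not of a bound site.

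Mitochondrially encoded subunits fell into separate levels in the files. *mt-Co1*, the catalytic core of complex IV, was the gene with most reads, at 21898 to 26541 CPM in C57BL/6 and 19813 to 30875 CPM in *Winnie* (log2 fold change 0.00, 95% interval -0.12 to 0.13), and that sign turned under scaling to genes outside the mitochondrial DNA. Per 1000 bases it stood at 15505 CPM in C57BL/6, followed by *mt-Cytb* of complex III at 11515, *mt-Nd1* at 11300, *mt-Nd2* at 7103, *mt-Nd4* at 5375 and *mt-Nd5* at 4143. The remaining 7 were listed at 133 CPM per 1000 bases (*mt-Nd3*) or less, and *mt-Co2*, *mt-Co3*, *mt-Atp6*, *mt-Atp8* and *mt-Nd4l* at 9.29 or less.

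Of the genes listed low, *mt-Co2*, *mt-Co3*, *mt-Atp6* and *mt-Nd4l* are matched at 100% identity, and *mt-Nd3* at 99.7%, by annotated pseudogenes that lie together on chromosome 1. Those pseudogenes were listed at 12.5 CPM (*Gm28661*, a copy of *mt-Co2*), 11.1 CPM (*Gm28437*, of *mt-Co3*), 13.8 CPM (*Gm10925*, of *mt-Atp6*), 1.13 CPM (*Gm10222*, of *mt-Nd4l*) and 1.47 CPM (*Gm28438*, of *mt-Nd3*), averaged over the 20 brains. Levels and annotated copies did not go together throughout. The abundant *mt-Nd4* also has a copy on chromosome 1 of 100% identity over 63.6% of its length (*Gm28439*, 6.81 CPM). *Gm13340*, the nearest annotated copy of the abundant *mt-Co1*, is 97.6% identical. For the low *mt-Atp8* and *mt-Nd6* no near copy was found among annotated transcripts, and sequence outside these was not searched. In the mitochondrial DNA *mt-Atp8* starts between *mt-Co2* and *mt-Atp6*, whose copies are neighbours on chromosome 1. Whether an unannotated copy of *mt-Atp8* lies between those copies was not tested. *mt-Atp8* and *mt-Atp6* overlap, as do *mt-Nd4l* and *mt-Nd4*, and *mt-Nd6* lies opposite the end of *mt-Nd5*. The part of shared reads in these low levels was not tested, and the values of these genes are uncertain.

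**Figure D3:**
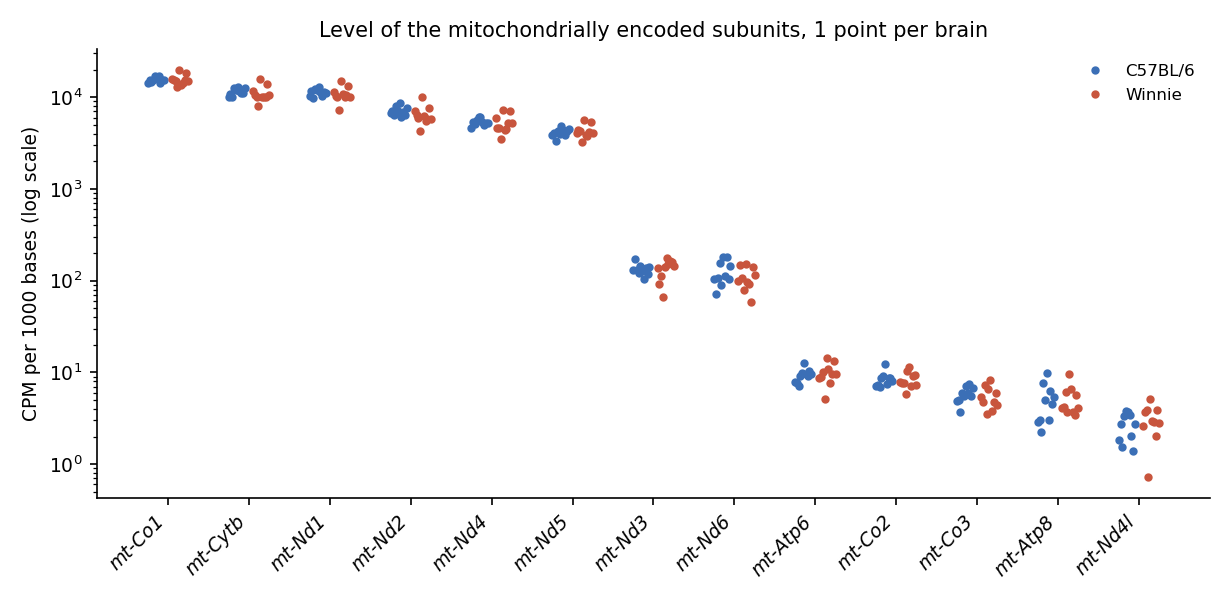
CPM per 1000 bases of transcript (y axis, log scale) of the 13 mitochondrially encoded subunits, ordered by their C57BL/6 mean, with 1 point per brain for C57BL/6 (blue) and *Winnie* (red). The C57BL/6 means of the 6 genes on the left run from 15505 (*mt-Co1*) to 4143 (*mt-Nd5*), those of *mt-Nd3* and *mt-Nd6* are 133 and 125, and the other 5 are at 9.29 or less, and the groups overlap for each gene.

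Between genotypes, the mitochondrial messenger RNAs had a wider range among *Winnie* than among C57BL/6 brains for each of the 6 abundant genes. *mt-Nd2*, a membrane subunit of complex I, had the lowest fold change of the 6 abundant ones (-0.16, SE 0.114, FDR 0.497), with 6289, 7247 and 9005 CPM as lowest, median and highest in C57BL/6 and 4467, 6324 and 10472 CPM in *Winnie*. The *Winnie* range enclosed that of C57BL/6. *mt-Nd1* was at -0.08 (FDR 0.743), *mt-Cytb* at -0.07 (FDR 0.757), *mt-Nd4* at -0.07 (FDR 0.805) and *mt-Nd5* at 0.04 (FDR 0.874). Of the less abundant ones, *mt-Nd6* was at -0.20, *mt-Co3* at -0.09, *mt-Nd3* at -0.02, *mt-Co2* at -0.01, *mt-Atp6* at 0.04, *mt-Atp8* at 0.05 and *mt-Nd4l* at 0.11, each with an FDR of 0.654 or more.

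The small ribosomal RNA *mt-Rnr1* was at 4830 to 6364 CPM in C57BL/6 and 3398 to 6199 CPM in *Winnie* (log2 fold change -0.19, FDR 0.257). The libraries were made from polyA-selected RNA, so the values for ribosomal and transfer RNA describe what passed that selection. Of the 10 transfer RNAs listed, *mt-Ti* (isoleucine) was lowest at -0.37 (SE 0.125, FDR 0.112), with 8.97 to 22.0 CPM in C57BL/6 and 8.15 to 12.98 CPM in *Winnie*, and all 10 *Winnie* brains below the C57BL/6 median. It overlaps *mt-Nd1* and *mt-Tq*. *mt-Tg* (-0.29) and *mt-Tw* (-0.24) also had an unadjusted p under 0.05 (limma FDR 0.217 and 0.225), and *mt-Tl1*, *mt-Tm*, *mt-Tq*, *mt-Tp*, *mt-Tt*, *mt-Tr* and *mt-Ta* lay between -0.24 and 0.05.

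Summed over the 13 genes, mitochondrially encoded subunits took 70407 ± 4953 CPM (SD, n = 10) in C57BL/6 and 69123 ± 12300 CPM (SD, n = 10) in *Winnie*. The lowest sum, 51083 CPM, and the highest, 94679 CPM, were both in *Winnie* brains (replicates 4 and 5), and those of C57BL/6 lay between 63434 and 78849 CPM. The 81 nuclear subunits summed to 7585 ± 362 CPM (SD, n = 10) in C57BL/6 and 7140 ± 336 CPM (SD, n = 10) in *Winnie*, 5.87% lower, with 9 *Winnie* brains below the C57BL/6 median and 4 below the lowest C57BL/6 brain. The ratio of the sums was 9.32 ± 0.972 (SD, n = 10) in C57BL/6 and 9.76 ± 2.16 (SD, n = 10) in *Winnie*. *Winnie* replicate 5 had the highest ratio, 14.3, with the lowest nuclear sum of all brains (6621 CPM), and replicate 4 had the lowest, 7.01. Sums of members were given no test, and as shares of 1 total they are not independent of each other.

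**Figure D4:**
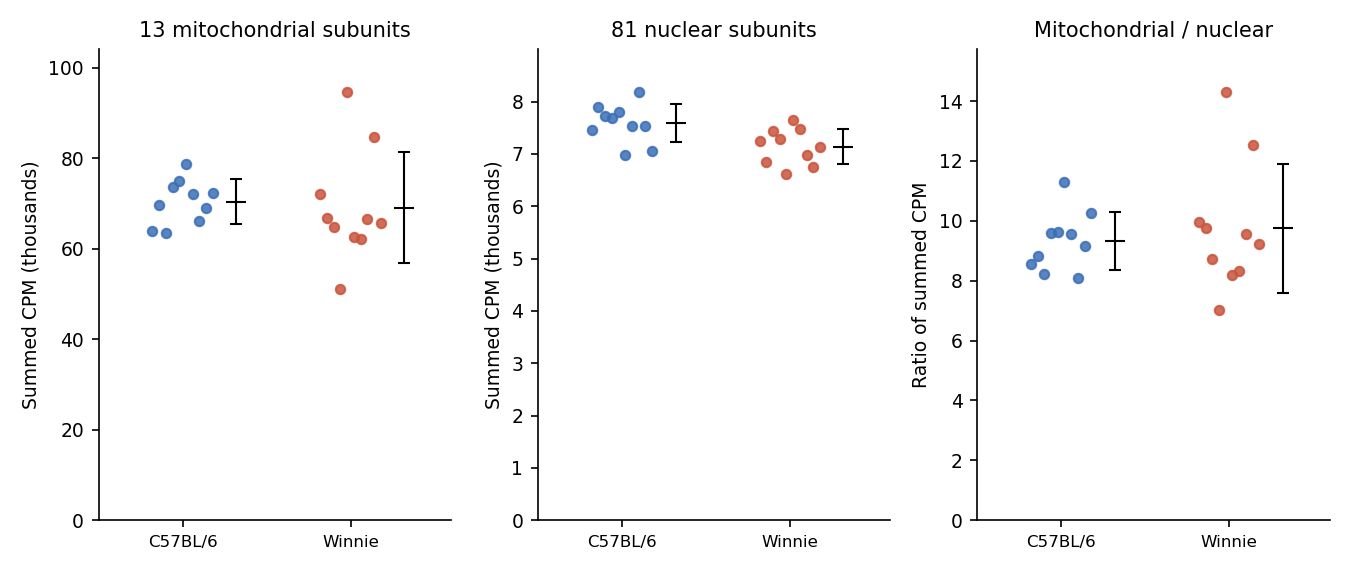
Summed CPM, in units of 1000 CPM, of the 13 mitochondrial and the 81 nuclear subunits, and the ratio of the sums (y axes, from 0), with 1 point per brain by genotype and the mean with its SD in black (10 brains per group). The mitochondrial sum spreads widest in *Winnie*, and the nuclear sum is lower in *Winnie* by 5.87% on average, with overlap.

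Nuclear complex IV subunits summed to 1718 ± 110 CPM (SD, n = 10) in C57BL/6 and 1575 ± 72.2 CPM (SD, n = 10) in *Winnie*, and all 10 *Winnie* brains were below the C57BL/6 median. For complex V the sums were 2606 ± 99.0 and 2510 ± 135 CPM (SD, n = 10 each), with 7 *Winnie* brains below the C57BL/6 median. For complex I they were 2043 ± 114 and 1903 ± 94.98 CPM (SD, n = 10 each), with 9 brains below it.

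Most nuclear subunits have short transcripts, and short transcripts were lower in *Winnie* across the table. Among 380 other protein-coding genes of at least 10 CPM with transcripts under 1000 bases, the median log2 fold change was -0.09, and 34.5% were lower at an unadjusted p under 0.05. Among 9303 such genes with longer transcripts the median was 0.01, and 8.42% were lower. The 54 nuclear subunits under 1000 bases had a median of -0.14, with 61.1% lower at that threshold, and the 27 longer ones had a median of -0.07, with 37.0% lower. By finer classes, the median of nuclear subunits against other genes was -0.15 against -0.12 under 600 bases, -0.13 against -0.08 from 600 to 1000 bases, -0.12 against -0.06 from 1000 to 1500 bases and -0.06 against -0.04 from 1500 to 2000 bases. All of the 7 nuclear subunits called had transcripts under 1000 bases.

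**Figure D5:**
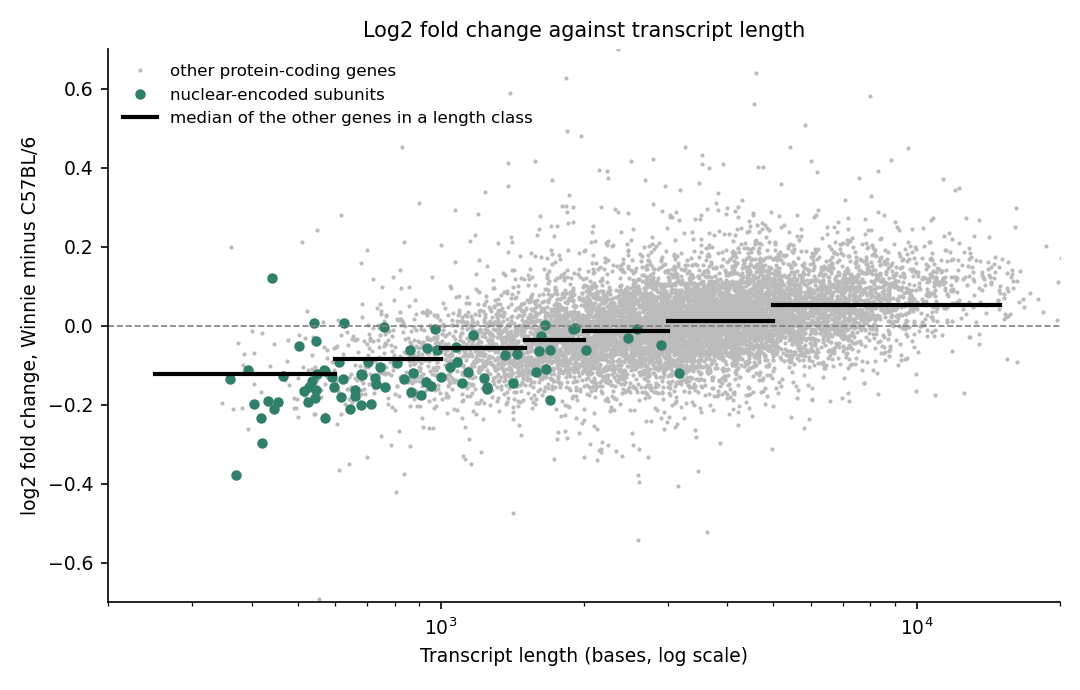
Log2 fold change (*Winnie* minus C57BL/6, y axis, 9 other genes lie outside it) against transcript length (x axis, log scale) for the nuclear subunits (green) and other protein-coding genes of at least 10 CPM (grey), with the median of the other genes in each length class (black). The medians rise from -0.12 under 600 bases to 0.05 above 5000 bases, and most subunits lie at the short end.

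The length trend was present brain by brain. The slope of a brain's log2 values, relative to the C57BL/6 mean, per doubling of transcript length ran from 0.0206 to 0.0669 in *Winnie* and from -0.0422 to 0.0549 in C57BL/6, and all 10 *Winnie* brains were above the C57BL/6 median. With each brain's values corrected for transcript length, an alternative chosen after seeing the data that covers 87 of the genes and leaves out those of the mitochondrial DNA, 0 of the 87 had an FDR under 0.05, where 1.02% of the 14625 genes fitted were lower. At an unadjusted p under 0.05, 15 were lower and 1 higher, and 8.56% of all genes fitted were lower. The median of the 81 nuclear subunits was then -0.05, and that of all genes fitted -0.01. For single genes the corrected log2 fold changes were -0.09 for *Uqcrq* (FDR 0.243), -0.09 for *Uqcr10* (FDR 0.216), -0.13 for *Cox5a* (FDR 0.240), -0.11 for *Cox5b* (FDR 0.194), -0.19 for *Atp5e* (FDR 0.176), -0.07 for *Atp5g1* (FDR 0.432) and -0.09 for *Atp5d* (FDR 0.316). What set the length trend was not tested, and it cannot be told apart from library order.

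Genes around the chain were read from lists by function. Cytochrome c (*Cycs*), the carrier between complexes III and IV, was at -0.19 (FDR 0.119) and cytochrome c1 (*Cyc1*), a core subunit of complex III outside the name rule, at -0.12 (FDR 0.121). Of the assembly factors, 0 of 14 for complex I (median -0.10), 0 of 4 for complex II (median -0.07), 1 of 6 for complex III (median -0.05), 0 of 21 for complex IV (median -0.07) and 0 of 4 for complex V with its inhibitor (median 0.02) passed an FDR of 0.05 with limma. Of all genes, 1.01% were lower and 1.52% higher at that FDR. At an unadjusted p under 0.05, 4, 1, 2, 5 and 0 of them were lower, and 1 gene of the complex V list was higher. At that p, 8.08% of all genes were lower and 9.53% higher. Also among the 112 genes are the 4 complex II factors, *Sdhaf1* to *Sdhaf4*. The list counts are without the correction for transcript length. The one called was *Uqcc2*, needed to make cytochrome b, with 22.6, 27.3 and 32.4 CPM as lowest, median and highest in C57BL/6 and 20.3, 22.6 and 25.9 CPM in *Winnie*. All 10 *Winnie* brains were below the C57BL/6 median (log2 fold change -0.23, SE 0.0610, FDR 0.0374).

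Of 11 regulators of nuclear respiratory genes, 8 had a fold change above 0 and 3 below it, with a median of 0.05. With limma 1 was higher at an FDR under 0.05, against 1.52% of all genes. At an unadjusted p under 0.05, 3 were higher and 1 lower, against 9.53% and 8.08% of all genes. *Ppargc1a*, the coactivator PGC-1alpha that drives mitochondrial biogenesis, measured 52.8, 60.1 and 63.3 CPM as lowest, median and highest in C57BL/6 and 58.4, 66.7 and 76.9 CPM in *Winnie*. In 9 *Winnie* brains it was above the C57BL/6 median, and it rose by 0.17 on the log2 scale (SE 0.0449, FDR 0.0429). It was called in 7 of the 20 fits with a brain left out, and *Uqcc2* in 8. After the correction for transcript length the log2 fold change was 0.11 for *Ppargc1a* (limma FDR 0.153) and -0.14 for *Uqcc2* (limma FDR 0.165). *Nrf1* was at -0.05 (FDR 0.775) and *Gabpa* at 0.04 (FDR 0.710).

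For the maintenance of mitochondrial DNA and RNA, *Tfam*, which packages the DNA, was at -0.01 (FDR 0.919), the RNA polymerase *Polrmt* at 0.03 (FDR 0.780) and the messenger RNA stabiliser *Lrpprc* at 0.07 (FDR 0.446). By list, 0 of 15 genes of mitochondrial DNA replication and transcription (median -0.03), 0 of 16 of mitochondrial RNA processing (median 0.05), 0 of 16 of the tricarboxylic acid cycle (median -0.02) and 0 of 12 of the outer membrane and import (median -0.08) passed an FDR of 0.05 with limma. At an unadjusted p under 0.05 there were 1, 1, 2 and 5 lower and 0, 1, 1 and 0 higher, against 8.08% of all genes lower and 9.53% higher. These counts too are without the correction for transcript length.

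Cell type markers were summed per brain beside these values. Summed CPM of 9 neuronal markers was 6596 to 7518 in C57BL/6 and 6630 to 7295 in *Winnie*, of 7 astrocyte markers 3817 to 4545 and 3916 to 4542, and of 7 oligodendrocyte markers 6463 to 8236 and 6495 to 7770, and the sums of 7 microglial markers were 314 to 349 and 289 to 373. Sums of 8 choroid plexus markers were 750 to 1070.5 and 512 to 1046, of 5 red cell genes 93.6 to 208 and 40.6 to 149.8, of 7 endothelial markers 161 to 224 and 177 to 211, and of 8 markers of cerebellar neurons 212 to 270.4 and 217 to 289. Of 8 genes listed for skeletal muscle, which include *Pvalb*, 3 were analysed, at 60.0 to 74.2 and 51.3 to 68.7. Their sum was not split by gene, so it is not a measure of muscle in the samples. The groups overlapped for each list. The mean sum was 5.54% lower in *Winnie* for microglia and 9.22% lower for the 3 genes of the skeletal muscle list. Each had 6 *Winnie* brains below the lowest C57BL/6 brain. The mean was 11.9% lower for choroid plexus and 6.50% higher for endothelium. For red cells it was 15.4% lower, although 6 *Winnie* brains were above the C57BL/6 median. *Pcp2*, a marker of Purkinje cells, was at 0 in at least 1 brain of each group, and of the 61 marker genes listed and analysed 1 passed an FDR of 0.05, the endothelial *Cldn5*, which was lower (log2 fold change -0.47, limma FDR 0.00331). The other 6 endothelial markers had fold changes above 0, 2 of them at an unadjusted p under 0.05. Their part in the differences of the subunits was not tested.

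Within *Winnie*, where the sex labels and the sex-linked genes go together, 5 labelled males were compared with 5 labelled females. Library numbers ran from 11 to 15 in these females and from 16 to 20 in the males, so sex and library order cannot be told apart. By limma 0 of the 112 genes had an FDR under 0.05 (0.116% of all genes did). At an unadjusted p under 0.05, 5 were lower and 9 higher in males, against 3.85% and 5.96% of all genes. The smallest p among them, that of *mt-Ti*, came with a log2 fold change of -0.37 (males minus females, SE 0.1002, FDR 0.167), from 11.6 ± 1.63 CPM in females and 8.83 ± 0.977 CPM in males (SD, n = 5 each). *mt-Nd3* was at 38.4 ± 10.98 CPM in females and 55.3 ± 4.26 CPM in males (SD, n = 5 each, log2 fold change 0.57, limma FDR 0.389). The X-linked *Ndufa1*, *Ndufb11* and *Cox7b* were at -0.08, 0.03 and 0.04 (limma FDR 0.942, 0.949 and 0.930).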

How the data were processed

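The authors isolated brain RNA, selected polyA RNA, sequenced paired ends of 100 bases on an MGISEQ-2000RS, ran the RNAsik pipeline (version 1.5.4) on GRCm38, counted reads per gene with featureCounts and deposited CPM made with Degust. The strand and multi-match settings and the filter on low counts are not given in the sources used here. At least 99.7% of a sample's deposited CPM were whole reads within 0.001 CPM, and these reads were used for edgeR 4.0.16 (514 genes at an FDR under 0.05, against 434 with limma) and DESeq2 1.42.0. Genes were compared with limma 3.58.1 (R 4.3.3) on log2(CPM + 0.5), with trend and robust variance estimates. FDR is the Benjamini-Hochberg adjusted p over 17211 genes. The members, the lists and the rule for named genes were chosen with earlier results of these data known. Named were mitochondrial members, genes with an FDR under 0.05, the 2 highest and 2 lowest nuclear subunits of complexes I, III, IV and V, complex II, isoform pairs, X-linked subunits, and *Cycs*, *Cyc1*, *Tfam*, *Polrmt*, *Lrpprc*, *Ppargc1a*, *Nrf1* and *Gabpa*. Transcript lengths and coordinates are from GENCODE M21, with the best-ranked principal transcript per gene (the shortest in ties). The length correction fitted a spline with 4 degrees of freedom per brain to other genes of at least 1 CPM. Near copies were found with blastn. Fits were tested on simulated data. Replicates are brains of separate mice, and reads set counting precision only.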

Additional observations from a re-analysis of the deposited data

Results flagged for a closer look

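Values of the named genes were searched for brains far from the others of their group, by the gap to the nearest brain over the range of the group, with Dixon's test at the 95% level. Of 158 groups 7 held such a brain, where chance gives about 5%. *Atp5h* was at 46.2 CPM in *Winnie* replicate 2, with the others at 52.6 to 59.5 CPM. *Atp5k* was at 52.3 CPM in *Winnie* replicate 6, above the others at 21.1 to 35.6 CPM. *Cox7b* was at 119 CPM in C57BL/6 replicate 8, above 82.4 to 101 CPM. *Cox8a* was at 221 CPM in *Winnie* replicate 4, below 272 to 320 CPM in the others. In *Winnie* replicate 5, *mt-Atp8* was at 1.94 CPM (0.704 to 1.36 CPM in the others) and *mt-Tm* at 34.9 CPM (8.90 to 22.1 CPM). *mt-Co2* was at 8.50 CPM in C57BL/6 replicate 6, above 4.68 to 6.19 CPM.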

How the results depend on the processing

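Labelled sex, 1 of the 2 sex covariates, goes against *Xist* and *Ddx3y* in 9 C57BL/6 libraries and does not adjust for sex there. The other is *Ddx3y*. The number of members lower at an FDR under 0.05 was 8. It stayed within 1.5 times of that under both other pseudocounts, the CPM filter, 3 other scalings, both sex covariates and edgeR. It was 23 with DESeq2, 2 with the replicate block (*Cox5a* and *mt-Rnr2*), and 0 after correction for transcript length, 0 for length and GC content, and 0 without the libraries against their sex label. Calls over all genes, 434 with all libraries, were 977, 227, 292, 307 and 1 in these fits. The last 3 alternatives were chosen after seeing the data. For the 2 length corrections, 15 and 19 of the 87 members fitted were lower at an unadjusted p under 0.05 (limma). In each, 1 was higher. Of the 14625 genes fitted, 8.56% and 8.95% were lower at that p, and 1083 and 1097 genes were higher. The complex III median was then -0.0615 and -0.0588, and the complex IV median -0.0320 and -0.0319, for length and for length with GC. The corrections leave out mitochondrial genes, and the last alternative has 1 C57BL/6 brain; other causes were not tested. With each brain left out, 1 to 16 members were lower at an FDR under 0.05 and 35 to 53 at an unadjusted p, medians were -0.14 to -0.11 for nuclear and -0.0587 to 0.0341 for mitochondrial subunits, and 4 to 7 members were lower and 5 to 10 higher in *Winnie* males. Same-numbered brains did not deviate together (r across genes from -0.34 to 0.17, 0 of 10 closest to their own number). A pairing that leaves no shared deviation would not be seen in this way.

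Fold changes (log2) whose sign turned were as follows. With the correction for transcript length, the value was 0.0417 for *Cox6c*, 0.0016 for *Ndufa4l2*, 0.0471 for *Ndufb4*, 0.0666 for *Ndufs7* and 0.0101 for *Uqcrc2*. With the correction for length and GC, the value was 0.0402 for *Cox6c*, 0.00384 for *Ndufa4l2*, 0.0422 for *Ndufb4*, 0.072 for *Ndufs7* and 0.0148 for *Uqcrc2*. Without the libraries against their sex label, the value was -0.0269 for *Atp5h*, 0.0198 for *Cox6c*, 0.199 for *Ndufa4l2*, 0.121 for *Ndufb4*, 0.0909 for *Ndufs7*, -0.0099 for *Uqcrc1*, -0.465 for *mt-Atp8*, 0.113 for *mt-Nd3*, -0.137 for *mt-Nd4l*, -0.0342 for *mt-Nd5*, -0.195 for *mt-Ta* and 0.186 for *mt-Tp*. With edgeR, the value was -0.0142 for *Cox7c*, 0.000424 for *Ndufb4*, -0.000445 for *Uqcrc1* and 0.0236 for *mt-Nd3*. With DESeq2, the value was -0.0157 for *Cox7c*, -0.0036 for *Uqcrc1* and 0.0215 for *mt-Nd3*. With *Ddx3y* as covariate, the value was -0.00847 for *Cox7c* and -0.00624 for *Uqcrc1*. With median-ratio scaling, the value was -0.0021 for *Uqcrc1*. Scaled to genes outside the mitochondrial DNA, the value was -0.00325 for *Uqcrc1* and -0.000836 for *mt-Co1*. With each brain left out in turn, the range was -0.0264 to 0.0369 for *Atp5h*, -0.0901 to 0.0776 for *Cox7c*, -0.0676 to 0.0642 for *Ndufb4*, -0.0207 to 0.014 for *Ndufs7*, -0.0382 to 0.0107 for *Tfam*, -0.016 to 0.0154 for *Uqcrc1*, -0.0264 to 0.0171 for *Uqcrc2*, -0.019 to 0.132 for *mt-Atp6*, -0.0284 to 0.136 for *mt-Atp8*, -0.037 to 0.0341 for *mt-Co1*, -0.0617 to 0.0482 for *mt-Co2*, -0.0649 to 0.0883 for *mt-Nd3*, -0.0106 to 0.0803 for *mt-Nd5*, -0.0154 to 0.0907 for *mt-Ta* and -0.112 to 0.033 for *mt-Tr*.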
